A study of Mus musculus with 18 samples.

Results

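The N-gate libraries of mice that carry the Y541S form of Esr1 were compared with the N-gate libraries of wild-type (WT) mice, which is 6 of the 18 libraries of the study. Esr1 encodes estrogen receptor alpha. The study sorted mouse mammary cells by flow cytometry into a mature luminal (ML) gate and a gate labelled N, and sequenced RNA from 3 libraries each of Y541S, D542G and WT mice in both gates. The members were taken by their titles, 3 Y541S N and 3 WT N libraries. Members and gene lists were chosen with earlier results of these data known. Every mouse of all 6 groups, WT included, was raised to 6 months of age, received estradiol (E2) and progesterone (P4) pellets, and was then given 30 mg/kg of giredestrant by mouth daily for 4 days. Giredestrant is an antagonist and degrader of estrogen receptor alpha, so each value below is a level under receptor blockade and none was measured without it. The labels do not say whether Y541S was heterozygous, nor which surface markers drew the N gate. Their source field names mature luminal cells for both gates, while the cell type tag gives N no established cell type. The gene counts were deposited by the authors, and values are given as CPM (counts scaled to a common library size) after scaling by the trimmed mean of M values.

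Estrogen receptor alpha is a ligand-activated transcription factor. Y541S and D542G lie in the mouse counterpart of the stretch of the ligand-binding domain where changes in human breast cancer let the receptor take its active shape without estradiol. In the mammary duct the receptor is made by a share of the luminal cells that line the lumen, which then signal to their neighbours with secreted factors such as amphiregulin. Around the luminal layer lies a basal layer of myoepithelial cells, which express keratins 5 and 14 together with smooth muscle actin and contract in answer to oxytocin to eject milk.

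Total gene counts of the 6 libraries ran between 37106123 and 45504595, within the 34797778 to 49507144 of all 18. The libraries of a group were not alike. On log2(CPM + 1) over the 10000 most abundant genes, Y541S N 3 had Pearson correlations of 0.803 and 0.844 with the other Y541S N libraries and of 0.931 and 0.942 with WT N 1 and 2. WT N 3 had correlations of 0.733 and 0.744 with the other WT N libraries and of 0.802 to 0.872 with the 3 WT ML libraries. In WT N 3 the luminal keratin gene Krt8 stood at 740.5 CPM, against 30.2 and 52.1 CPM in WT N 1 and 2, and the basal regulator Trp63 stood at 116 CPM, against 1164 and 1172 CPM. Thus the library labelled WT N 3 was high in a luminal and low in a basal gene, and Y541S N 3 was close to WT N 1 and 2. Y541S N 2 held milk protein RNA: the 18 milk and alveolar genes tested summed to 1696, 39358 and 1857 CPM in the Y541S N libraries, and to 1688, 2289.9 and 1643 CPM in the WT N libraries. Whether the labels of WT N 3 and Y541S N 3 are right was not tested; both were kept as labelled, so every WT N and Y541S N value with all 6 libraries includes them. Results are given with all 6 libraries and, where they differ, without WT N 3 and Y541S N 3 (the 4-library comparison, in a fit of the remaining 16 libraries). Both libraries were set aside as outlying by their expression values. Counts and adjusted p values over 4 libraries are therefore a description and no independent support for the calls over 6.

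**Figure D1:**
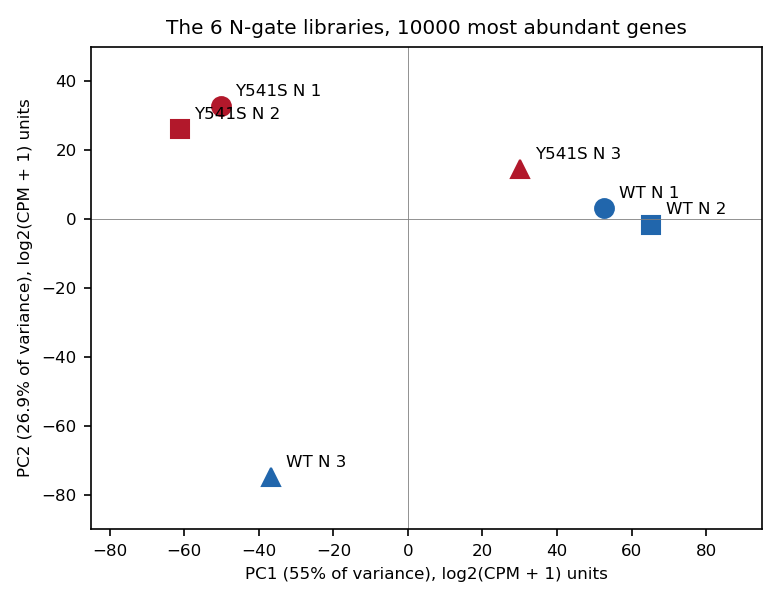
Principal components of the 6 N-gate libraries on log2(CPM + 1) of the 10000 most abundant genes; the x axis is the first component, with 55% of the variance, and the y axis the second, with 26.9%. Red marks are Y541S N and blue marks WT N libraries; Y541S N 3 lies at 30.2 on the first component, near WT N 1 and 2 at 52.7 and 65.3, and WT N 3 stands alone at -75 on the second.

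Of 18298 genes tested, 208 (1.14%) differed, of which 187 were higher in Y541S N than in WT N and 21 were lower (edgeR quasi-likelihood test, Benjamini-Hochberg adjusted p under 0.05), or 1.02% and 0.115% of the genes. The median log2 fold change was 2.19 among the higher genes and -1.37 among the lower ones. In 185 of the 187 and in 20 of the 21 the 3 Y541S N values and the 3 WT N values did not overlap; across all genes 9.45% had all 3 Y541S N libraries above all 3 WT N libraries and 5.87% had them below. Y541S N 3 was the lowest of its group in 168 of the 187 higher genes and the highest of its group in 16 of the 21 lower genes, so it lay nearest to WT N in most of them and still outside the WT N range. In the 4-library comparison 1105 genes were higher (6.04%) and 841 lower (4.60%), among them 185 of the 187 (1.01% of all genes) and 20 of the 21 (0.109%). Leaving out each of the 6 libraries in turn left between 48 genes (without Y541S N 1) and 699 genes (without Y541S N 3), and 34 genes (0.186%) were called with all libraries and in each of these 6 fits, 33 of them higher (0.18%) and 1 lower (0.00547%). Without Y541S N 2 the count was 64, without WT N 1 it was 55, without WT N 2 it was 60 and without WT N 3 it was 535. Over the 6 libraries alone, with no other group to set the spread, edgeR called no gene, with 1553 at an unadjusted p under 0.05; limma-voom with library weights called 1931 and DESeq2 called 1070 over all 18 libraries. With the N and ML libraries that share a genotype and a number paired, limma-voom called 447 genes, 406 higher and 41 lower. Of the 55 called genes named below, 54 were still called without Y541S N 3, 47 without WT N 3 and 18 to 22 without 1 of the other 4 libraries, and in no such fit did one change sign. As the labels do not tie a library to an animal, these p-values measure the spread between libraries.

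Of the genes called with all libraries and in each fit that left out a library, Fzd7 came first. It encodes a Frizzled receptor for Wnt ligands and lies at chr1:59482424-59486955 (GRCm38, plus strand). Fzd7 stood at 228, 173 and 194 CPM in Y541S N, against 44.2, 38.9 and 27.4 CPM in WT N. All 3 Y541S N values were above all 3 WT N values with a wide gap, and the log2 fold change was 2.43 ± 0.24 (SE; edgeR adjusted p = 0.000829) and ranged over 2.26 to 2.59 when a library was left out. Serpinf1, at chr11:75409769-75422701, encodes pigment epithelium-derived factor, a secreted serpin that inhibits vessel growth. Its level was 338, 196 and 138 CPM in Y541S N, against 11.2, 5.12 and 5.36 CPM in WT N, a log2 fold change of 4.95 ± 0.53 (edgeR adjusted p = 0.00125). Cck, the gene of the peptide hormone cholecystokinin, had 189, 302 and 76.1 CPM in Y541S N, against 6.01, 9.23 and 8.44 CPM in WT N (4.58 ± 0.62, edgeR adjusted p = 0.00480). For both genes Y541S N 3 was the lowest of its group and still over 8 times the highest WT N value.

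Signalling genes were among the rest of this set. Pde4b, a phosphodiesterase that degrades cyclic AMP, had 2731, 2703 and 1749.8 CPM in Y541S N, against 624, 649.6 and 612 CPM in WT N, and the WT N libraries lay close together. Its log2 fold change was 1.93 ± 0.23 (edgeR adjusted p = 0.00164). Rrad, a small GTPase that restrains calcium channels, had 734, 399.7 and 275 CPM in Y541S N, against 30.0, 31.1 and 55.5 CPM in WT N, with no overlap (3.59 ± 0.43, edgeR adjusted p = 0.00164). Csdc2, which encodes an RNA-binding protein with a cold shock domain, averaged 52.3 ± 10.9 CPM in Y541S N and 7.74 ± 1.96 CPM in WT N (SD, n = 3 each; log2 fold change 2.75 ± 0.32). Itprid1 averaged 134 ± 51.9 CPM in Y541S N and 22.5 ± 5.05 CPM in WT N (SD, n = 3 each; 2.57 ± 0.36). Mcam, an adhesion molecule of smooth muscle, pericytes and vessels, averaged 241 ± 91.5 CPM in Y541S N and 37.8 ± 13.5 CPM in WT N (SD, n = 3 each; 2.67 ± 0.37). In each of these genes every Y541S N library was above every WT N library.

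**Figure D2:**
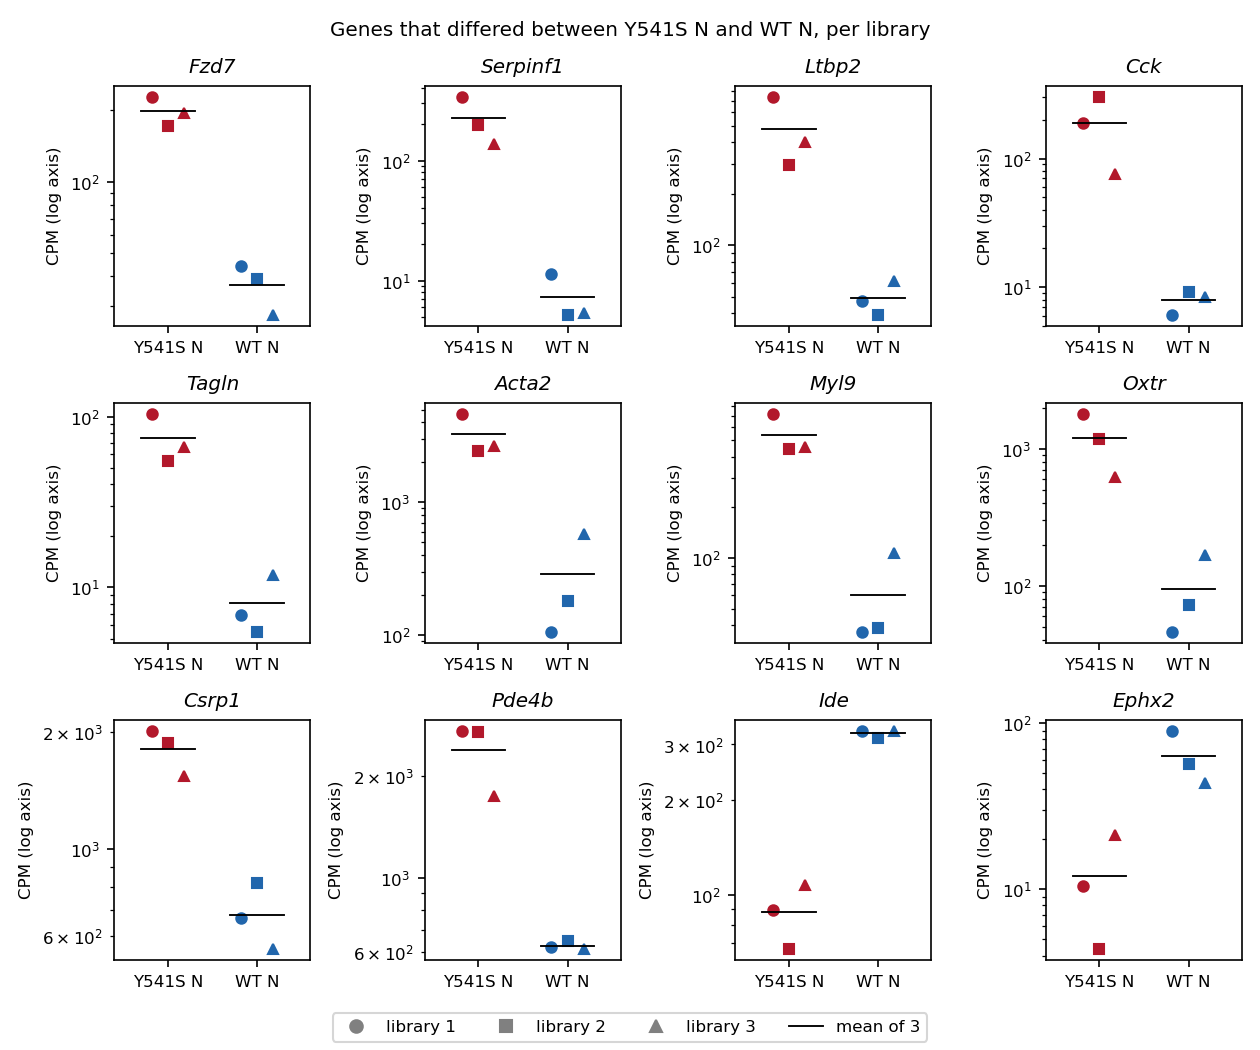
CPM of 12 genes in each library, 3 Y541S N libraries in red at the left and 3 WT N libraries in blue at the right of each panel; y axes are logarithmic and differ between panels, symbols give the library number and the line is the mean. The 10 genes of the upper rows and of the start of the lowest row were higher in Y541S N in all 3 libraries, with Fzd7 at 173 to 228 against 27.4 to 44.2 CPM, and Ide and Ephx2 were lower in all 3.

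Among the called genes were several of the contractile apparatus. They are described through a list of 24 contractile and smooth muscle genes that was put together after the values were seen, of which 23 were tested. Of these, 10 were higher, 13 did not pass, none was lower and 20 had all 3 Y541S N libraries above all 3 WT N libraries, beside the 1.02% and 9.45% of all genes given above; since the list was chosen from the values, its count is a description. Its median log2 fold change was 1.92, against -0.038 over all genes tested. In the 4-library comparison 15 members were higher, beside 6.04% of all genes. The summed level was 16337, 11197 and 9293 CPM in Y541S N, against 2524, 2701 and 3453 CPM in WT N, with no overlap. With 1 library left out, 3 members were called without Y541S N 1, without WT N 1 or without WT N 2, 4 without Y541S N 2, 10 without Y541S N 3 and 12 without WT N 3.

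Acta2, the smooth muscle actin that marks myoepithelial cells, lies at chr19:34241090-34255590 on the minus strand. Acta2 had 4639.6, 2438 and 2674 CPM in Y541S N, against 104, 181 and 582 CPM in WT N, so the lowest Y541S N library was over 4 times the highest WT N library. The log2 fold change was 3.49 ± 0.69 (edgeR adjusted p = 0.0268) and 4.63 ± 0.77 in the 4-library comparison. Oxtr, the oxytocin receptor, had 1809, 1183 and 623 CPM in Y541S N, against 45.4, 71.5 and 166 CPM in WT N (3.67 ± 0.76, edgeR adjusted p = 0.0323). Tagln, an actin-binding protein of smooth muscle, had 104, 55.0 and 66.1 CPM in Y541S N, against 6.84, 5.43 and 11.8 CPM in WT N (3.22 ± 0.48, edgeR adjusted p = 0.00616); other annotated genes overlap 58% of its span, so reads there could be split or lost. WT N 3 was the highest WT N library for all 3 of these genes and the groups did not overlap in any. Tagln was called in each fit that left out a library, whereas the edgeR adjusted p reached 0.117 for Acta2 and 0.131 for Oxtr in the least favourable of them.

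The regulatory light chain of myosin, Myl9, had 716, 441 and 457 CPM in Y541S N, against 36.1, 38.2 and 107 CPM in WT N (3.16 ± 0.50, edgeR adjusted p = 0.00848). Csrp1, a LIM-domain protein of the actin cytoskeleton, averaged 1813 ± 245 CPM in Y541S N and 679 ± 133 CPM in WT N (SD, n = 3 each; 1.42 ± 0.21, edgeR adjusted p = 0.00621) and was called in each fit that left out a library. The actin crosslinkers Flna and Actn1 had log2 fold changes of 1.75 ± 0.29 and 1.10 ± 0.25, smoothelin (Smtn) of 1.78 ± 0.34 and tropomyosin 1 (Tpm1) of 1.02 ± 0.22. All 4 passed, each with 3 Y541S N values above 3 WT N values. Kcnmb1, a subunit of the calcium-activated potassium channel of smooth muscle, had 15.3, 11.4 and 7.40 CPM in Y541S N and 0, 0.0259 and 0 CPM in WT N; its whole span lies within other annotated genes, so its reads are uncertain. Calponin 1 (Cnn1), smooth muscle myosin (Myh11) and myosin light chain kinase (Mylk) had the same order of libraries but did not pass, with edgeR adjusted p values of 0.118, 0.101 and 0.248. For Cnn1 the values were 808, 447 and 445 CPM in Y541S N, against 11.9, 32.2 and 156 CPM in WT N, and the 4-library comparison called it (4.83 ± 0.96, edgeR adjusted p = 0.00777).

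Smooth muscle genes are known for CArG boxes near their starts, the sequence bound by serum response factor. The 250 bases before the start are shown for Acta2 and Myl9, the pair of called contractile genes whose windows held a match, from RefSeq on GRCm38.p6, read 5′ to 3′ on the gene's strand, with CArG boxes in capitals, allowing at most 1 G or C among the middle letters. The windows are chr19:34255374-34255623 for Acta2 (minus strand) and chr2:156775214-156775463 for Myl9 (plus strand).
Acta2: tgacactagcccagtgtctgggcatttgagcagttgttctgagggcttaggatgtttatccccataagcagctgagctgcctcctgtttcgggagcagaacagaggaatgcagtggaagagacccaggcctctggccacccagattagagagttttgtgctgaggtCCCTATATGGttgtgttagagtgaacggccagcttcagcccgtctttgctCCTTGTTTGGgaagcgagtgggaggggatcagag
Myl9: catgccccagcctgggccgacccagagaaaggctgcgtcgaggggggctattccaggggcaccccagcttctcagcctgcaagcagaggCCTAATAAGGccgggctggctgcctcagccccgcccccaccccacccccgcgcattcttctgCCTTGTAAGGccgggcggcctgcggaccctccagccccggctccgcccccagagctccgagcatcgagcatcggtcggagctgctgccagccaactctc
The Acta2 window holds 2 such boxes, which start 84 and 34 bases before the RefSeq start of the gene, and no exact one. That start lies inside the Acta2 span given above, so both boxes and most of the window fall within that span. The Myl9 window holds 2, at 161 and 99 bases before the start, of which the farther one is exact. The box reads the same pattern on both strands. Among 20 of the 24 contractile genes with a RefSeq window, 4 (20%) held an exact box and 5 (25.0%) held one with the allowance, against 1.62% and 9.78% of all 27025 genes with a window. The other genes with an exact box were Cnn2, Vcl and Srf, so Myl9 was the only called gene with one. Srf had no counts in any of the 6 compared libraries. In these data a count of 0 does not show that a gene was silent. Among protein-coding genes lying wholly within other genes, 88.8% were at 0 in all 18 libraries. The oxidative phosphorylation gene Cox4i1 was at 0 in the 6 libraries as well. Among 19 estrogen-responsive genes with a window, 1 (5.26%) held an exact box and 4 (21.1%) held one with the allowance, a share close to that of the contractile genes. The contractile list was put together after the values were seen, from a class of genes known for such boxes. Its shares are therefore a description and say nothing about which genes were called. These matches describe letters near the starts and were not measured as binding.

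Some genes of the extracellular matrix were called as well. Latent TGF-beta binding proteins hold the inactive growth factor in the matrix. Ltbp2, at chr12:84783212-84876532, had 737, 293 and 399 CPM in Y541S N, against 47.4, 38.7 and 61.3 CPM in WT N (3.28 ± 0.38, edgeR adjusted p = 0.00164) and was called in each fit that left out a library. Ltbp1 and Ltbp3, which were named after their values were seen, rose, with log2 fold changes of 2.37 ± 0.43 and 1.35 ± 0.23 (edgeR adjusted p = 0.0167 and 0.0123). Of the 22 tested genes of the TGF-beta and BMP pathway list, which held none of these genes, none was called and 7 had all 3 Y541S N libraries above WT N, beside 9.45% of all genes; over 4 libraries 4 were higher and 1 lower, beside 6.04% and 4.60%. The elastic fibre genes Fbln2, Fbln5 and Eln, also named after their values were seen, rose, with log2 fold changes of 3.62 ± 0.65, 2.31 ± 0.49 and 1.91 ± 0.43. Prelp, a leucine-rich proteoglycan that anchors basement membranes, averaged 209 ± 53.2 CPM in Y541S N and 45.3 ± 11.8 CPM in WT N (SD, n = 3 each; 2.20 ± 0.30, edgeR adjusted p = 0.00480); its span is overlapped by other genes over 40.7%. Each of these 7 genes had no overlap between the groups.

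Of 19 collagen genes, 2 were higher, none was lower and 11 had all 3 Y541S N libraries above WT N, beside 1.02% of all genes called higher and 9.45% with no overlap. Over 4 libraries 4 were higher, beside 6.04% of all genes. Col6a1 had 576, 522 and 204 CPM in Y541S N, against 49.0, 74.4 and 78.6 CPM in WT N (2.69 ± 0.56, edgeR adjusted p = 0.0328). Col11a1 was low in both groups, with 4.37, 2.49 and 1.81 CPM in Y541S N, against 0.151, 0.207 and 0.469 CPM in WT N (3.38 ± 0.66, edgeR adjusted p = 0.0258). The collagen-modifying enzyme Colgalt2 had 152, 75.2 and 42.8 CPM in Y541S N, against 5.11, 3.23 and 5.13 CPM in WT N (4.32 ± 0.82). In these 3 genes Y541S N 3 was the lowest of its group and still above every WT N library. Pamr1, which encodes a secreted protein, gave one of the 10 highest fold changes, with 514, 231 and 97.9 CPM in Y541S N, against 3.55, 1.84 and 0.321 CPM in WT N (7.20 ± 1.18, edgeR adjusted p = 0.0106). The protease Adamts1, named after its values were seen, had 7278, 4772 and 3112 CPM in Y541S N, against 843, 1170.2 and 802 CPM in WT N (2.43 ± 0.40). Postn, periostin, and Sparc, both matrix proteins, had the same order of libraries but did not pass (edgeR adjusted p = 0.0884 and 0.0875); Postn had 5165, 2093 and 1937 CPM in Y541S N and 495, 526 and 285 CPM in WT N. Y541S N 1 was the highest library for Pamr1, Adamts1 and Postn.

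Among 22 integrin and laminin genes 1 was higher, Lamc1 (1.21 ± 0.24, edgeR adjusted p = 0.0273), and none was lower, beside 1.02% and 0.115% of all genes. In 8 of them all 3 Y541S N libraries were above WT N, beside 9.45% of all genes. Over 4 libraries 5 were higher and 1 lower, beside 6.04% and 4.60%. Itga8, an integrin chain not on that list, had 56.0, 42.9 and 27.6 CPM in Y541S N, against 2.39, 2.07 and 0.0494 CPM in WT N (4.81 ± 0.90). The widely used integrin chains Itga6 and Itgb1 did not pass, with log2 fold changes of -0.18 ± 0.34 and 0.55 ± 0.25.

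Among 24 Wnt pathway genes 3 were higher and none was lower, while 8 had all 3 Y541S N libraries above WT N, against 1.02% of all genes called higher and 9.45% without overlap. Over 4 libraries 4 were higher and 1 lower, beside 6.04% and 4.60% of all genes. Beside Fzd7, the genes called over 6 libraries were the ligand gene Wnt5b and Dkk3, a secreted protein of the Dickkopf family. Wnt5b had 112, 112 and 81.4 CPM in Y541S N, against 37.7, 39.6 and 24.7 CPM in WT N (1.59 ± 0.27, edgeR adjusted p = 0.0127). Dkk3 had 2249, 1344 and 936 CPM in Y541S N, against 410.0, 223 and 185 CPM in WT N (2.47 ± 0.52, edgeR adjusted p = 0.0336). The stem cell receptor gene Lgr5, named after its values were seen, lay in the same order but did not pass (2.09 ± 0.87, edgeR adjusted p = 0.287). Lgr5 had 982, 705 and 297 CPM in Y541S N and 256, 122 and 87.4 CPM in WT N. The gap between the groups, from 256 to 297 CPM, was narrower than the range within either group.

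Among 16 Notch pathway genes 2 were higher and none was lower, beside 1.02% and 0.115% of all genes. All 3 Y541S N libraries were above WT N in 4 of them, beside 9.45% of all genes. The Notch target Hey1 had 34.8, 153 and 20.04 CPM in Y541S N, against 6.82, 8.41 and 2.05 CPM in WT N (3.59 ± 0.71, edgeR adjusted p = 0.0267), with Y541S N 2 far above the rest. The receptor Notch4 had 4.97, 12.2 and 12.4 CPM in Y541S N, against 2.14, 1.34 and 0.518 CPM in WT N (2.88 ± 0.63, edgeR adjusted p = 0.0404), and missed the threshold in the 4-library comparison (edgeR adjusted p = 0.0517).

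Other called genes covered lipid metabolism, transport and transcription. The fatty acid desaturases Fads1 and Fads2 were the 2 of 18 fatty acid synthesis genes that passed, both higher. Across all genes 1.02% were called higher, the share to read beside this list and the mesenchymal and unfolded protein response lists below. All 3 Y541S N libraries were above WT N in 3 fatty acid synthesis, 6 mesenchymal and 1 unfolded protein response genes, beside 9.45% of all genes. Fads1 had 559, 519.6 and 232 CPM in Y541S N, against 128, 60.2 and 55.5 CPM in WT N (2.43 ± 0.46), and Fads2 had a log2 fold change of 2.47 ± 0.49. The lipoprotein receptor gene Vldlr (4.12 ± 0.64), the glucose transporter gene Slc2a4 (4.38 ± 0.89), the urea transporter gene Slc14a1 (4.33 ± 0.87) and the splicing regulator gene Khdrbs3 (3.99 ± 0.63) were among the 10 largest rises, and in none did the groups overlap. The mesenchymal transcription factor gene Prrx1 was the 1 of 18 mesenchymal transition genes that passed, with 34.0, 23.1 and 15.4 CPM in Y541S N, against 0.252, 1.27 and 1.97 CPM in WT N (4.37 ± 0.81). Vimentin (Vim) had 489, 533 and 235 CPM in Y541S N, against 58.9, 86.0 and 185 CPM in WT N, and missed the threshold (edgeR adjusted p = 0.0766), which it passed in the 4-library comparison (edgeR adjusted p = 0.00458). Trib3, a pseudokinase of the stress response, was the 1 of 18 unfolded protein response genes that passed (2.01 ± 0.45). Sox10, a transcription factor of mammary progenitors and of Schwann cells, was higher (2.96 ± 0.60), with 166, 147 and 66.5 CPM in Y541S N, against 8.91, 8.46 and 31.4 CPM in WT N.

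Ide, the insulin-degrading enzyme, was the gene called lower in Y541S N with all libraries and in each fit that left out a library. It lies at chr19:37268743-37337852 on the minus strand. Its level was 89.5, 66.9 and 107 CPM in Y541S N, against 331, 314 and 331 CPM in WT N, a log2 fold change of -1.89 ± 0.26 (edgeR adjusted p = 0.00480). The WT N libraries lay close together, WT N 3 included. Ephx2, the soluble epoxide hydrolase, had 10.5, 4.35 and 21.1 CPM in Y541S N, against 89.6, 56.5 and 43.5 CPM in WT N (-2.40 ± 0.46, edgeR adjusted p = 0.0215). The fatty acid elongase gene Elovl7 had 37.5, 36.6 and 85.4 CPM in Y541S N, against 162, 182 and 174 CPM in WT N (-1.70 ± 0.33, edgeR adjusted p = 0.0233). In both genes Y541S N 3 was the library of its group nearest to WT N. Cyp39a1, an oxysterol hydroxylase, fell (-1.37 ± 0.31) although its highest Y541S N library, Y541S N 3, overlapped WT N 3. The others of the 10 largest falls were the Rab regulator gene Dennd1c (-2.24 ± 0.44), Tango2 (-1.37 ± 0.29), the transcription factor gene Btaf1 (-1.49 ± 0.32), the tight junction gene Marveld3 (-1.39 ± 0.30), the centromere protein gene Cenpv (-1.44 ± 0.32) and Plekhd1, which had 0.138, 0.0503 and 0 CPM in Y541S N and 10.5, 2.69 and 4.07 CPM in WT N.

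For Esr1 and Foxa1 the sign of the difference turned on WT N 3. Esr1, at chr10:4611593-5005614, had 112, 67.5 and 49.9 CPM in Y541S N, against 10.7, 14.9 and 307 CPM in WT N. The Y541S N values lay between those of WT N 1 and 2, which were lower, and WT N 3, which was higher, and the log2 fold change was -0.54 ± 0.95 (edgeR adjusted p = 0.854). In the 4-library comparison it was 2.81 ± 0.71 (edgeR adjusted p = 0.0253), the opposite sign; it was 2.58 without WT N 3 alone and -0.30 without Y541S N 3 alone. The counts do not tell mutant from wild-type transcripts, so this is no check of the allele. Pgr, the progesterone receptor and a classical receptor target, had 11.6, 6.64 and 3.50 CPM in Y541S N, against 0.201, 1.94 and 24.4 CPM in WT N, and changed sign likewise, with -0.29 ± 1.03 over all libraries and 3.09 ± 0.92 over 4 (edgeR adjusted p = 0.938 and 0.0487). Foxa1, the factor that opens chromatin for the receptor, had 114, 107 and 43.0 CPM in Y541S N, against 7.88, 14.7 and 573 CPM in WT N, with log2 fold changes of -1.17 ± 1.13 and 3.29 ± 0.80 (edgeR adjusted p = 0.699 and 0.0206). Gata3, its partner in luminal cells, did not pass in either comparison (-0.17 ± 0.38 and 0.73 ± 0.29).

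Greb1, another classical receptor target, was above WT N in every Y541S N library, with 15.8, 12.1 and 9.19 CPM in Y541S N and 2.64, 1.99 and 6.86 CPM in WT N. It did not pass over 6 libraries (1.69 ± 0.47, edgeR adjusted p = 0.105) and passed over 4 (2.59 ± 0.47, edgeR adjusted p = 0.00504). Rerg, an estrogen-regulated Ras-like gene, had no overlap either, missed the threshold over 6 libraries and passed over 4 (1.78 ± 0.42, edgeR adjusted p = 0.0537; over 4 libraries 1.76 ± 0.52, edgeR adjusted p = 0.0487). Areg, amphiregulin, had 9.99, 16.8 and 58.6 CPM in Y541S N, against 36.8, 66.3 and 111 CPM in WT N. Wnt4, a progesterone-induced ligand, had 33.5, 61.7 and 118 CPM in Y541S N, against 106, 158 and 209 CPM in WT N. The groups overlapped through Y541S N 3 for both genes. Neither passed over 6 libraries (edgeR adjusted p = 0.347 and 0.189), and both were lower over 4 (-1.95 ± 0.58 and -1.47 ± 0.37; edgeR adjusted p = 0.0480 and 0.0258). Of 26 estrogen-responsive genes none passed and 5 had all 3 Y541S N libraries above WT N, beside 9.45% of all genes. Over 4 libraries 5 were higher and 1 lower, beside 6.04% and 4.60% of all genes. The prolactin receptor gene Prlr was high in WT N 3 alone, with 76.2, 139 and 55.4 CPM in Y541S N, against 91.7, 72.3 and 1216 CPM in WT N (-2.35 ± 0.86). Tnfsf11, the RANK ligand gene, was at or under 4.23 CPM in all 6 libraries. Socs2, a signalling inhibitor induced by prolactin and growth hormone, missed the threshold (2.30 ± 0.53, edgeR adjusted p = 0.0512) and passed over 4 libraries (3.51 ± 0.46).

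**Figure D3:**
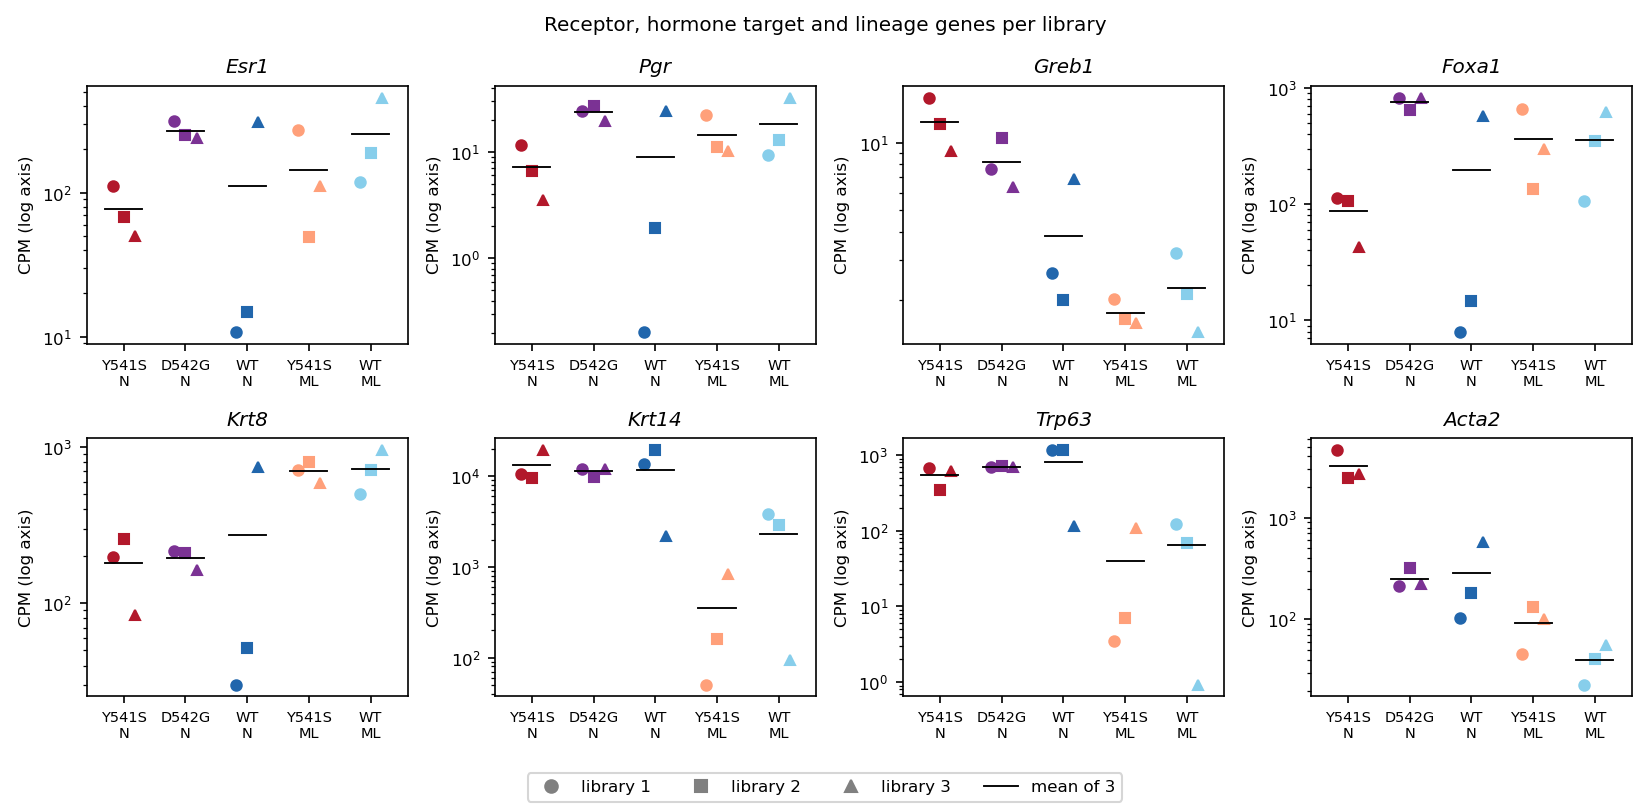
CPM of 8 genes in each library of Y541S N, D542G N and WT N and of Y541S ML and WT ML, on logarithmic y axes that differ between panels; symbols give the library number and lines the mean of 3. In Esr1, Pgr, Foxa1 and Krt8 the triangle of WT N 3 stands with the ML libraries, apart from WT N 1 and 2, and Acta2 is highest in Y541S N.

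Basal markers were present in both groups, and the basal keratins did not pass the test. Krt14 had 10648, 9469 and 19480.5 CPM in Y541S N, against 13805, 19469 and 2171 CPM in WT N (0.16 ± 1.04, edgeR adjusted p = 0.970), and Krt5 had 5344, 4663 and 11029 CPM, against 10676, 14866 and 1669 CPM (-0.37 ± 1.30, edgeR adjusted p = 0.936). Trp63 did not pass either (-0.59 ± 1.26, edgeR adjusted p = 0.884), and for all 3 genes WT N 3 was far below the other 5 libraries. Of 20 basal and myoepithelial genes 3 were higher (Acta2, Tagln and Oxtr), none was lower and 8 had all 3 Y541S N libraries above WT N, beside 1.02% of all genes called higher and 9.45% with no overlap. Over 4 libraries 7 were higher, beside 6.04% of all genes, and the median log2 fold change was -0.128, against 0.603 over 6. The list summed to 34902, 27813 and 43905 CPM in Y541S N, against 37029.8, 46566 and 8018 CPM in WT N. The 3 members called over 6 libraries are contractile genes or the receptor for oxytocin, and no keratin of the list was called there. Krt15 had 1307, 1592 and 8409 CPM in Y541S N, against 24585, 24989 and 2902 CPM in WT N (-2.21 ± 1.11, edgeR adjusted p = 0.383), and Krt6a had a log2 fold change of -0.31 ± 0.78, neither passing. Both belong to the list of keratinocyte and squamous genes, of which 17 were tested and none passed. That list summed to 3694, 3798 and 29328 CPM in Y541S N, against 40123.5, 50797 and 4966 CPM in WT N. It was thus high in Y541S N 3 and in WT N 1 and 2. The part of keratinocytes in the basal keratin and Trp63 values was not tested.

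Among luminal genes WT N 3 was the highest library in several. Krt8 had 199, 256 and 84.1 CPM in Y541S N, against 30.2, 52.1 and 740.5 CPM in WT N (-0.61 ± 0.81, edgeR adjusted p = 0.793), and Krt18 had 575, 1112 and 292 CPM, against 195, 264 and 4583 CPM (-1.35 ± 0.86, edgeR adjusted p = 0.509). Over 4 libraries both were higher in Y541S N (2.47 ± 0.33 and 1.88 ± 0.38; edgeR adjusted p = 0.000920 and 0.00926). Of 20 hormone-sensing luminal genes none passed over 6 libraries; over 4, 7 were higher and 2 lower, beside 6.04% and 4.60% of all genes. That list summed to 2667, 2466 and 1945 CPM in Y541S N, against 1643, 1669 and 10984 CPM in WT N. Of 14 luminal progenitor genes 2 were higher, Hey1 and Sox10, beside 1.02% of all genes, and 4 had all 3 Y541S N libraries above WT N, beside 9.45%. The progenitor genes Kit and Elf5 did not pass (-0.18 ± 0.61 and 1.998 ± 0.92). The epithelial adhesion gene Epcam had 708, 995 and 566 CPM in Y541S N, against 491, 579 and 1870.0 CPM in WT N (-0.37 ± 0.39). The milk genes Csn2 and Lalba rested on Y541S N 2, at 17514 and 285 CPM, against at most 29.1 and 1.38 CPM in the other 5 libraries, and neither passed (edgeR adjusted p = 0.414 and 0.231).

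Of the fibroblast, pericyte, endothelial and macrophage markers 1 passed the test, while the summed level of the first 3 lists was higher in every Y541S N library. In RNA from sorted cells as a bulk, a larger share of cells of a type and more RNA per cell cannot be told apart. Across all genes 1.02% were called higher and 9.45% had all 3 Y541S N libraries above WT N. Of 12 fibroblast genes none passed and 7 had all 3 Y541S N libraries above WT N; they summed to 5657, 2527 and 2277 CPM in Y541S N, against 705, 646 and 502 CPM in WT N. Most of that sum was Postn, 5 of the 12 genes overlapped between the groups, and the median log2 fold change was 1.442 over 6 libraries and 1.239 over 4. Of 8 pericyte genes 1 passed, Mcam, and 2 had all 3 Y541S N libraries above; they summed to 438, 388 and 315 CPM in Y541S N, against 144, 144 and 119.7 CPM in WT N. Mcam is also made by smooth muscle and vessels. Of 12 endothelial genes none passed and 8 had all 3 Y541S N libraries above, among them the defining gene Pecam1 with 78.4, 218 and 80.0 CPM in Y541S N, against 40.8, 45.5 and 39.0 CPM in WT N; they summed to 451, 1092 and 458 CPM in Y541S N, against 245, 265 and 293 CPM in WT N. None of the genes of these 3 lists was at 0 in all 6 libraries. The part of such cells in the contractile and matrix results was not tested. Of 12 macrophage and dendritic cell genes none passed, and they summed to 107, 56.4 and 109.8 CPM in Y541S N, against 64.0, 51.8 and 332 CPM in WT N, where WT N 3 was the highest library.

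**Figure D4:**
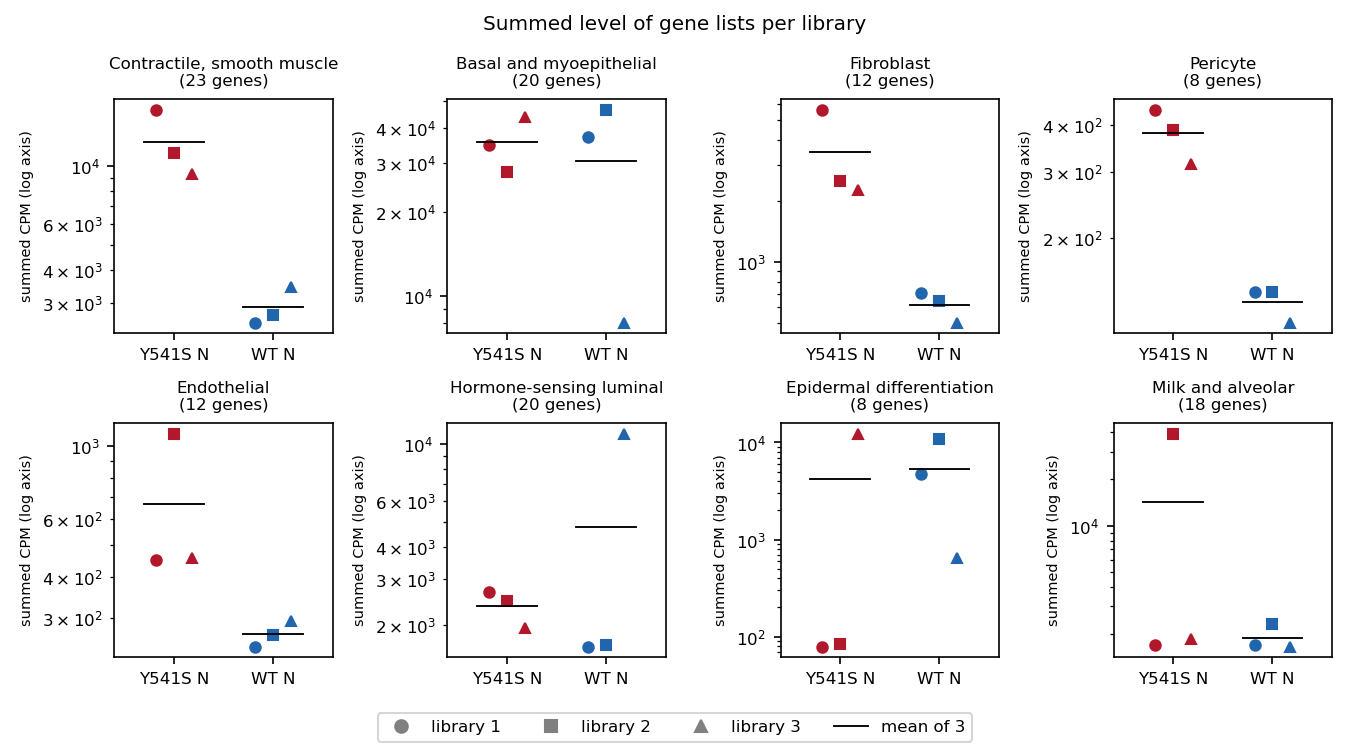
Summed CPM of 8 gene lists in each library, with Y541S N in red at the left and WT N in blue at the right of each panel; y axes are logarithmic, symbols give the library number and lines the mean of 3. The contractile list ran from 9293 to 16337 CPM in Y541S N, against 2524 to 3453 CPM in WT N, while the hormone-sensing luminal and epidermal lists split within groups.

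Without WT N 3 and Y541S N 3, a further set of genes separated the groups, and for many of them the libraries left out were those nearest to the other group. Krt1, a keratin of the upper epidermis, had 1.36, 0.629 and 3861 CPM in Y541S N, against 1378, 3397 and 119.7 CPM in WT N; the log2 fold change was -0.34 ± 2.26 over 6 libraries and -11.22 ± 3.04 over 4 (edgeR adjusted p = 0.971 and 0.0333). The 8 epidermal differentiation genes tested summed to 78.8, 84.2 and 12360.1 CPM in Y541S N, against 4707, 10801 and 645 CPM in WT N, so Y541S N 3 was the highest of all 6. Il22ra2, a decoy receptor for interleukin 22, was at 0 in Y541S N 1 and 2 and at 24.6 CPM in Y541S N 3, against 316, 197 and 11.2 CPM in WT N. Against a floor of 3 counts per library it was at least 3549.8-fold lower in Y541S N 1 and 2 than in WT N 1 and 2. Genes called higher over 4 libraries and not over 6 included Itih2, which encodes a hyaluronan-binding protein, with 20.4, 45.4 and 5.66 CPM in Y541S N, against 0.151, 0 and 21.3 CPM in WT N. Tph1, the serotonin-synthesising tryptophan hydroxylase, had 26.7, 359.9 and 11.9 CPM in Y541S N, against 0, 0.336 and 138 CPM in WT N. Stk36, a kinase needed for motile cilia, had 5.39, 19.0 and 3.52 CPM in Y541S N, against 0.0755, 0 and 4.94 CPM in WT N. In Itih2, Stk36 and Tph1 WT N 3 lay within or near the Y541S N range, whereas WT N 1 and 2 were near 0. Ano4, of the anoctamin channel family, had 40.1, 37.0 and 14.4 CPM in Y541S N, against 0.0755, 0.750 and 8.17 CPM in WT N, and its groups did not overlap.

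Enzymes of cholesterol synthesis and genes of class I antigen presentation were lower over 4 libraries. Of 18 cholesterol synthesis genes none passed over 6 libraries and 9 were lower over 4, beside the 4.60% of all genes lower there. Msmo1, a sterol methyl oxidase, had 22.0, 36.6 and 163 CPM in Y541S N, against 144, 189.7 and 77.4 CPM in WT N, with a log2 fold change of -0.89 ± 0.57 over 6 libraries and -2.51 ± 0.40 over 4 (edgeR adjusted p = 0.510 and 0.00238). Hmgcs1, the synthase ahead of the rate-limiting step, had 46.2, 21.0 and 181 CPM in Y541S N, against 164, 269 and 38.3 CPM in WT N, and Fdft1, squalene synthase, had a log2 fold change of -1.65 ± 0.33 over 4 libraries. In Msmo1 and Hmgcs1 Y541S N 3 lay with WT N 1 and 2, and WT N 3 was below all 3 of these libraries. Of 10 class I genes none passed over 6 libraries. All 3 Y541S N libraries were below WT N in 3 of them, beside 5.87% of all genes, and 7 were lower over 4, beside 4.60%. H2-K1, a class I heavy chain, had 498, 857 and 1260.1 CPM in Y541S N, against 1591, 2053 and 1584 CPM in WT N, and H2-D1 had 975, 1504 and 2249 CPM, against 2557, 3209 and 2650.2 CPM. Neither overlapped between the groups; their log2 fold changes were -0.9995 ± 0.29 and -0.83 ± 0.30 over 6 libraries (edgeR adjusted p = 0.120 and 0.208) and -1.43 ± 0.29 and -1.22 ± 0.32 over 4. H2-K1 and H2-D1 are related in sequence, and how reads that match both were counted is not given.

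**Figure D5:**
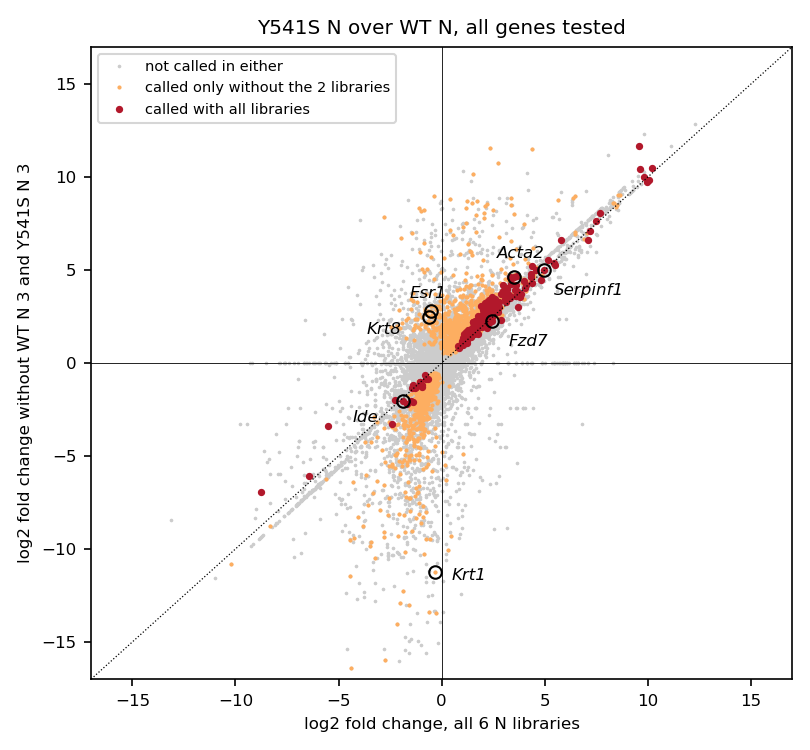
Log2 fold change of Y541S N over WT N for all 18298 genes tested, over all 6 N libraries on the x axis and without WT N 3 and Y541S N 3 on the y axis; red points were called with all libraries, orange points without the 2 libraries only, and the dotted line marks equal values. Fitted values far from 0 belong to genes at or near 0 in 1 group; Fzd7, Serpinf1, Acta2 and Ide lie near the line, Esr1 and Krt8 change sign, and Krt1 has -0.34 with all libraries and -11.22 without the 2.

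In the ML gate no gene differed between Y541S and WT by edgeR (1012 at an unadjusted p under 0.05), and no gene's Y541S effect differed between the gates after adjustment (0%, with 1538 at an unadjusted p under 0.05 and a smallest adjusted p of 0.159). With the N and ML libraries that share genotype and number as blocks, edgeR called no gene either (1563 at an unadjusted p under 0.05, smallest adjusted p 0.19), nor did limma-voom with these libraries paired. DESeq2 called 185 genes for that difference and limma-voom with library weights 334, and edgeR called 827 over the 16 libraries without WT N 3 and Y541S N 3. For Fzd7 the ML levels were 32.7, 31.1 and 40.7 CPM in Y541S ML, against 17.6, 27.4 and 19.5 CPM in WT ML, and the difference between the gates was 1.73 ± 0.32 on the log2 scale (edgeR adjusted p = 0.184). Acta2 had 46.2, 131 and 99.9 CPM in Y541S ML, against 22.8, 40.6 and 56.3 CPM in WT ML, a log2 difference between the gates of 2.28 ± 0.90 (edgeR adjusted p = 0.538). The effects of the N gate were thus not shown by edgeR over all libraries to differ from those of the ML gate.

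The other mutant was set beside Y541S in the N gate; both are compared with the same WT N libraries, WT N 3 included. Against WT N, 294 genes were higher and 150 lower in D542G N (1.61% and 0.820%). Acta2 had 214, 318 and 221 CPM in D542G N and Oxtr had 75.7, 81.2 and 71.0 CPM, within the range of WT N for both, and their log2 fold changes over WT N were -0.20 ± 0.63 and -0.31 ± 0.69. Of the 23 contractile genes 3 were higher in D542G N than in WT N, Smtn (2.13 ± 0.34), Flna (1.40 ± 0.29) and Actn1 (1.01 ± 0.25), and the list summed to 4477, 4233 and 4948 CPM in D542G N, above all 3 WT N libraries. Set directly against D542G N, Y541S N was higher in 184 genes and lower in 77 (1.01% and 0.421%), among them 6 of the 23 contractile genes, all higher. There Acta2 differed by 3.70 ± 0.70, Oxtr by 3.99 ± 0.77 and Serpinf1 by 4.55 ± 0.52 on the log2 scale (edgeR adjusted p = 0.0165, 0.0183 and 0.000855). Cck had 10.8, 21.0 and 19.7 CPM in D542G N and differed by 3.46 ± 0.59 (edgeR adjusted p = 0.00914). Other genes were high in both mutants. Pde4b had 3447, 2730.3 and 3898 CPM in D542G N and a log2 fold change of 2.42 ± 0.23 over WT N (edgeR adjusted p = 0.000310), beside the 1.93 ± 0.23 of Y541S N, and Rrad had 432, 289 and 399.9 CPM and 3.27 ± 0.42 (edgeR adjusted p = 0.00203). Fzd7 lay between, at 109, 77.8 and 72.1 CPM in D542G N, 1.23 ± 0.23 over WT N, with Y541S N higher than D542G N by 1.20 ± 0.23 (edgeR adjusted p = 0.0142 and 0.0166).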

How the data were processed

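RNA of sorted mouse mammary cells was sequenced from Nextera XT libraries, a kit that does not mark strand, per the labels' protocols. The values used are the gene counts deposited by the authors, 1 file a library with 52636 genes; the build is GRCm38, per the submitters' processing notes, with the aligner, counter and annotation not given in the sources used here. Deposited gene widths and RPKM values were not used. Genes were placed with GENCODE M21, which matched 52489 of them. Among protein-coding genes, those lying wholly within other genes were at 0 in all 18 libraries in 88.8% of cases and the rest in 14.8%, so genes that overlap others are uncertain.

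Counts were tested with edgeR 4.0.16 (R 4.3.3) in 1 quasi-likelihood model of all 18 libraries and 6 group means, after a filter (minimum count 10, minimum total 15) that left 18298 genes, with trimmed mean of M values scaling (factors 0.850 to 1.10), 12 residual degrees of freedom and Benjamini-Hochberg adjustment over all genes tested. The standard error is the log2 fold change divided by the root of the F statistic. Alternatives were other scalings and filters, subsets of libraries, a replicate block, limma 3.58.1 and DESeq2 1.42.0, in which 1195 genes had no adjusted p. The code was tested on simulated data.

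Members and gene lists were chosen with earlier results of these data known. Genes named are the 10 highest and 10 lowest called genes (average log2 CPM at least 2; predicted genes passed over) with all and with 4 libraries, up to 4 genes a list by smallest p, genes called in every fit that left out a library, and a set of receptor and lineage genes, of which a selection is shown; others are marked. Replicate files were not duplicates. N and ML libraries that share a genotype and a number deviated together from their group means (correlations of 0.168 to 0.556 over 9 pairs). WT N 2 was an exception, at 0.193 with WT ML 1 and 0.168 with WT ML 2. Deviations from a group mean cancel out, which lowers the correlations between differing numbers. The numbers may thus pair the gates within a genotype, which the labels do not state. A floor of 3 counts per library was used for genes at 0. Promoter windows are from RefSeq (GRCm38.p6).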

Additional observations from a re-analysis of the deposited data

How the results depend on the processing

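The call count depended on how the spread was estimated and on single libraries. Relative log expression factors, upper quartile factors and a stricter filter on low counts kept the number of called, higher and lower genes within 1.5 times that reported (208, 187 and 21); without a filter 12 genes were lower. Over the 9 N libraries 112 genes were called, 111 higher and 1 lower, and over the 6 compared libraries 0. limma-voom with library weights called 1931 (1251 higher, 680 lower), limma-voom with same-numbered N and ML libraries paired 447 (406 and 41), DESeq2 1070 (815 and 255), and the 4-library comparison 1946 (1105 and 841). The share of called genes that were higher was 89.9% as reported, 64.8% with library weights, 76.2% with DESeq2 and 56.8% in the 4-library comparison. Leaving out 1 library gave 48 to 699 called, 43 to 462 higher and 1 to 237 lower genes. For the difference between the gates it gave 0 to 62 genes, while library weights gave 334, DESeq2 185 and the 4-library comparison 827, against 0 as reported.

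With the replicate block, which adds the label number as a term, 134 genes were called (124 higher, 10 lower). The numbers did not pair Y541S N with WT N: deviations of same-numbered libraries from their group means correlated at -0.149, -0.461 and -0.543. Within a genotype same-numbered N and ML libraries did deviate together, though WT N 2 did so slightly more with WT ML 1 than with WT ML 2. A block of same-numbered N and ML libraries in edgeR, added after seeing the data, called 0 genes for the difference between the gates.

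Of the 55 called genes named, none changed sign under any of these settings. 48 remained called with no filter, 29 over the 9 N libraries, 40 with the replicate block and 54 in the 4-library comparison. Signs changed only for genes not called as reported. As log2 fold changes, the replicate block gave Esr1 0.11 and Pgr 0.039; library weights gave Esr1 2.497, Pgr 3.69, Foxa1 2.87, Gata3 0.60, Krt8 2.02, Krt18 1.20, Krt14 -0.25, Epcam 0.40, Kit 0.11 and Csn2 -1.38; and the pairing of N with ML libraries gave Esr1 0.97, Pgr 1.58, Foxa1 0.98, Gata3 0.063, Krt8 0.62 and Krt5 0.019. Over the 4-library comparison and the fits without 1 library the ranges were Esr1 -1.09 to 2.81, Pgr -0.88 to 3.09, Foxa1 -1.76 to 3.29, Gata3 -0.47 to 0.73, Prlr -2.87 to 0.39, Krt8 -1.16 to 2.47, Krt18 -1.96 to 1.88, Krt5 -1.35 to 0.19, Krt14 -0.73 to 0.73, Krt6a -0.83 to 0.16, Epcam -0.70 to 0.67, Kit -0.47 to 0.12, Elf5 -0.21 to 2.52, Csn2 -8.47 to 18.53, Lalba -0.34 to 7.58, Itga6 -0.64 to 0.15, Krt1 -11.22 to 0.78, Tph1 -1.27 to 10.15 and Tnfsf11 -1.04 to 9.12. The cause was not tested.

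With 3 libraries a group and a biological coefficient of variation of 0.652, an exact permutation test of 1 gene could not go below p = 0.1, and a gene that missed the threshold is not shown to be equal.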
